A study of Rattus norvegicus with 20 samples.

Results

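Tracheal cells were compared with cells of the other non-hairy epithelia of the study, to ask which genes mark the tissue of origin both before the cells were transplanted into skin and after they were recovered from it. The members are the 4 trachea samples of the 20 RNA-Seq samples of the series, 2 of the 1st round of culture and 2 of the 2nd. They were chosen by their tissue label alone, and were set against the 12 bladder, vagina and thymus samples of the same rounds, 4 of each tissue, with the round as a covariate. The whisker samples were left out.

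All cells came from Sprague-Dawley rats of the CZ-004 act-EGFP line, in which EGFP is expressed constitutively, and they were grown on irradiated 3T3-J2 feeder cells and sorted on EGFP before RNA was extracted. The age of the donors was PN200 (postnatal days) for trachea and vagina, PN201 for bladder (dome) and PN137 for thymus, where a frozen stock was the source. The 1st round consists of cells cultured before transplantation, and the 2nd round of the same cells recovered from grafts in newborn mouse skin and cultured again. The trachea, bladder and vagina samples were bulk cultures. For thymus the labels are ambiguous, since in the 1st round they speak of a bulk culture in 1 field and of a clone in another, while in the 2nd they give a bulk culture only. Each group had 2 samples, and none of the sources used here states that these came from separate animals, grafts or cultures. The p values of contrasts within rounds and between them therefore measure the spread between samples that may be parallel dishes of 1 culture. Those over both rounds also take in the spread between bladder, vagina and thymus, and still count each sample as independent. The rounds are successive states of the same cells, so the 2nd round is not an independent set of donors.

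The trachea is lined by a pseudostratified epithelium of endodermal origin, in which basal cells give rise to secretory and ciliated cells. The transcription factor Nkx2-1 directs the formation of trachea and lung from the foregut, and retinoic acid keeps the airway lining mucociliary, since a lack of vitamin A turns it squamous. In culture the basal cells multiply and most of the differentiated programme is lost. Only a part of the genes could be named here, because the files list Ensembl identifiers and the name table at hand covers 1878 of the 13192 genes tested. Nkx2-1, Krt5, Krt14, Tp63, Scgb1a1 and Foxj1 have no entry in it. If among the genes tested, they are counted below under identifiers that could not be named. The tracheal label could accordingly be checked against few of the defining airway markers, which are described below with their lists.

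The libraries held 20723083 to 29824855 counts on genes, those of trachea 20723083 to 26587373. Levels are given as CPM, the counts of a gene scaled to the total of its library after adjustment of that total by TMM scaling. The smallest level taken as shown, 3 counts, corresponds to 0.101 to 0.145 CPM when the unadjusted totals are used. Since these are bulk samples, fewer cells that express a gene and less RNA of it per cell cannot be told apart. The 2 samples of a group differed most in 1st round thymus and bladder, with a mean chi-square per gene of 44.1 and 35.2, against 2.52 to 8.95 in the other groups, trachea included. Without any 1 of those 4 libraries the tracheal markers defined below numbered 40 to 42 higher and 50 to 54 lower. The Y-linked gene Eif2s3y lay between 94.2 and 126 CPM in the 4 bladder samples and at or below 0.0817 CPM in the other 12, and the gene listed as Ddx3 followed the same pattern, with at least 89.4 CPM in bladder and at most 0.117 CPM elsewhere. Every contrast with bladder is thus also a contrast of this signal, and the part of donor sex in the results was not tested.

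A gene was taken as a tracheal marker of both rounds when it differed by at least 2-fold from bladder, from vagina and from thymus within each round, in the same direction in all 6 contrasts, each at an adjusted p below 0.05 (limma voom). By this rule 43 genes were higher in trachea (0.326% of the genes tested) and 52 were lower (0.394%). The 6 contrasts share the trachea samples and rest on the spread within 8 groups of 2. Singly they called 5.72% of the genes higher and 9.77% lower against bladder, 9.94% and 8.60% against vagina and 10.5% and 9.68% against thymus in the 1st round. In the 2nd round the shares were 6.0% and 12.2% against bladder, 7.34% and 6.05% against vagina and 7.76% and 10.2% against thymus. The same rule gave 239 higher and 41 lower genes for bladder, 37 and 77 for vagina, and 80 and 79 for thymus. All 4 trachea samples lay beyond all 12 other samples in 33 of the 43 higher and 38 of the 52 lower markers, where 2.07% and 1.98% of all genes tested lay so. The rule already asks for a separation within each round of the same samples. These counts therefore describe the markers and are no separate support for them. The number of markers depended on the tissues in the comparison, since without bladder it was 174 higher and 154 lower. Symbols were at hand for 13 of the higher and 19 of the lower markers.

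Among the higher markers with a symbol, 10 reached at least 5 CPM in each of the 4 trachea samples. They were Crip1, Bmx, Adcy2, F2rl2, Mmp24, Bco2, Wnk3, Ehd3, Dpy19l1 and Actn1, in the order of their log2 fold change over both rounds. For 8 of these the RefSeq table of the GRCr8 rat assembly holds the sequence around the start of the gene. The 250 bases before the start are shown for Bmx, the marker with a near absence outside trachea and vagina, and for F2rl2, which held the only AP-1 match. Both are on the plus strand, at chrX:33858878-33859127 and chr2:28706516-28706765 of that assembly.
Bmx: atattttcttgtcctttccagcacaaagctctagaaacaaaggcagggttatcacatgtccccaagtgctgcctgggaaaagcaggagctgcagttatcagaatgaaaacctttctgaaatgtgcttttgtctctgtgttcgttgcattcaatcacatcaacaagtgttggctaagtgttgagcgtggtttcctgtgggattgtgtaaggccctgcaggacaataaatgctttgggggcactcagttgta
F2rl2: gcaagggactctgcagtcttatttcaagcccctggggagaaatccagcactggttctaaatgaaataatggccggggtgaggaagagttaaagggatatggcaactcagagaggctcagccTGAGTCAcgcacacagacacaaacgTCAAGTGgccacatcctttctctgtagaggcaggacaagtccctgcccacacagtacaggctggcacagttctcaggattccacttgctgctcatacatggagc
Capitals mark matches to an AP-1 motif (TGANTCA) and, on the other strand, to an NK2 homeodomain motif (CACTTGA), which do not overlap here. Both strands were searched for these motifs and for a forkhead motif (TGTTTAC). The NK2 motif was found in 2 of the 8 promoters, those of F2rl2 and Dpy19l1, the AP-1 motif in 1 and the forkhead motif in 0. Of all 33469 promoters of this length in the table, 2.53%, 6.34% and 3.21% held them, respectively. These matches describe the letters only.

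Bmx, a non-receptor tyrosine kinase of the Tec family, stood at 65.0 and 61.5 CPM in the 1st round trachea samples and at 80.2 and 75.0 CPM in the 2nd. The other 12 samples lay between 0 and 7.62 CPM with a median of 0.181 CPM, and the highest was a 1st round vagina sample. The groups did not overlap, and the log2 fold change over both rounds was 7.51 ± 0.72 (SE, adjusted p = 2.4e-05).

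Crip1, a small LIM domain protein, had 50.9, 47.2, 53.4 and 58.2 CPM in the 4 trachea samples. It ranged from 0 to 17.8 CPM in the others, with a median of 0.0823 CPM. The only other group above 1 CPM was 1st round bladder, at 10.1 and 17.8 CPM. The log2 fold change was 7.56 ± 0.84 (adjusted p = 9.2e-05).

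Adcy2, an adenylyl cyclase, and F2rl2, a receptor of the protease-activated family, were at lower levels but were also largely restricted to trachea. Adcy2 was at 11.4 and 11.1 CPM in 1st round and at 8.14 and 6.82 CPM in 2nd round trachea, and at 2.07 CPM or less in the other samples, with a log2 fold change of 4.72 ± 0.55 (adjusted p = 0.00016). F2rl2 was at 8.86, 8.05, 6.77 and 5.13 CPM in trachea and at most 1.36 CPM elsewhere, with a log2 fold change of 4.35 ± 0.35 (adjusted p = 5.6e-06). Neither gene overlapped between trachea and the other tissues.

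Mmp24, a membrane-bound matrix metalloproteinase, fell between rounds in trachea and in the other tissues alike. It was at 31.1 and 31.8 CPM in the 1st round and at 7.05 and 8.14 CPM in the 2nd, against 4.09 CPM at most in the other samples. The log2 fold change was 3.52 in the 1st and 3.85 in the 2nd round, and 3.60 ± 0.24 over both (adjusted p = 4.4e-07).

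Bco2, a mitochondrial enzyme that cleaves carotenoids, was at 16.4 and 14.3 CPM in 1st round and at 55.1 and 54.9 CPM in 2nd round trachea. The others ranged from 0.974 to 13.9 CPM with a median of 6.16 CPM, so that 1st round trachea lay only just above the highest of them, a 2nd round vagina sample. The log2 fold change was 2.56 ± 0.51 (adjusted p = 0.0073).

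The other 4 markers were detected in every tissue. Wnk3, a kinase that regulates chloride cotransporters, had 52.5 to 62.0 CPM in trachea and 4.31 to 31.1 CPM in the other samples. Ehd3, which acts in endocytic recycling, had 57.6 to 81.0 CPM against 14.4 to 32.6 CPM. Dpy19l1, of a family of mannosyltransferases, had 43.4 to 67.0 CPM against 16.2 to 31.7 CPM. Actn1, the actin cross-linker alpha-actinin, had 1653 and 1698 CPM in the 1st round and 1338 and 1385 CPM in the 2nd, against a range of 384 to 871 CPM. Their log2 fold changes were 2.32 ± 0.33 for Wnk3, 1.71 ± 0.15 for Ehd3, 1.43 ± 0.14 for Dpy19l1 and 1.41 ± 0.19 for Actn1, with adjusted p values between 1e-05 and 0.00089, and none of the 4 overlapped between the groups.

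**Figure D1:**
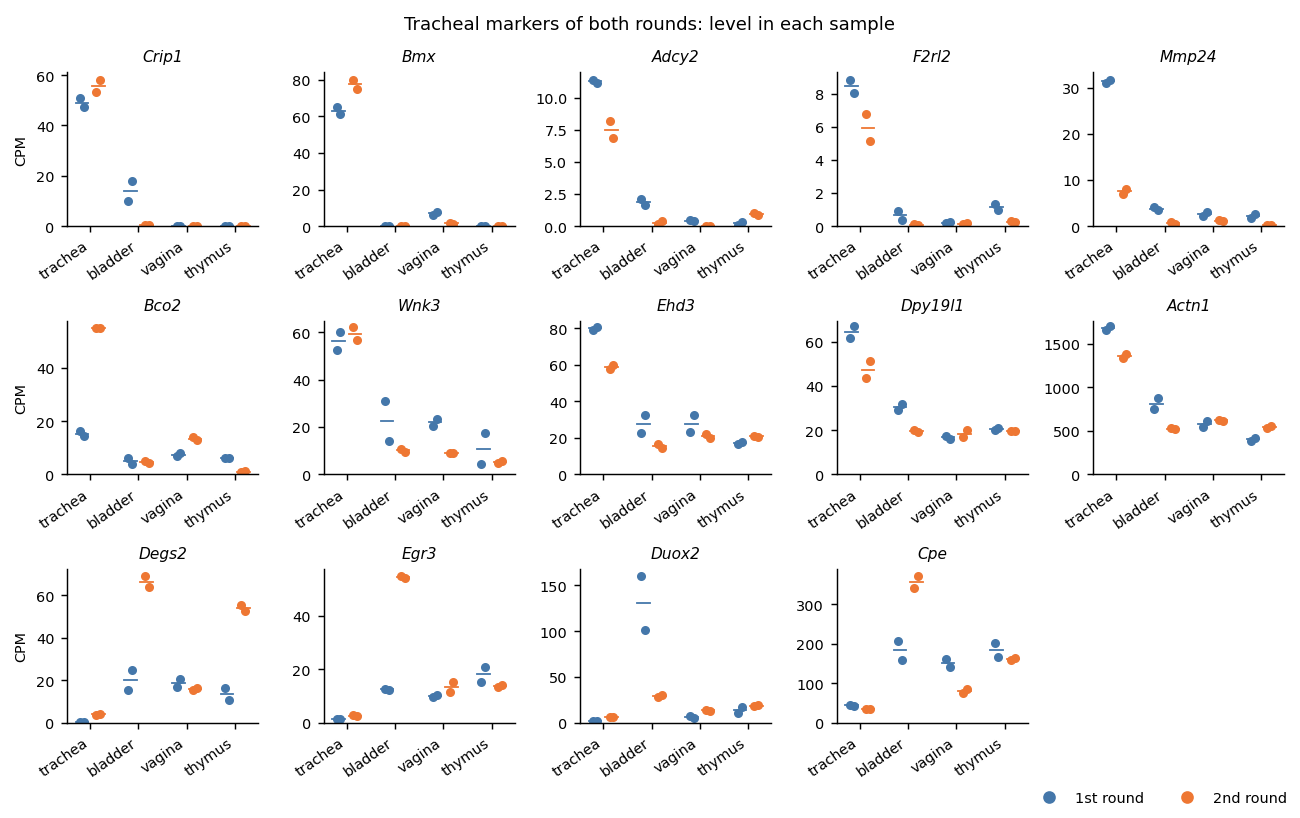
Level in CPM (linear axis from 0) of the 10 higher and 4 lower tracheal markers named by rule, by tissue, with 1 point for each sample and a bar for the mean of the 2 samples of a round. The trachea samples of Bmx lie between 61.5 and 80.2 CPM, above the highest other sample at 7.62 CPM, and those of Degs2 lie at or below 4.29 CPM, under the lowest other sample at 10.6 CPM.

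The higher markers below this level were Cd38, Dpep2 and Acta1. Cd38, an enzyme that hydrolyses NAD, was at 73.9 and 76.6 CPM in 1st round trachea but only at 4.17 and 3.85 CPM in the 2nd, and the latter overlapped with 1st round bladder (4.09 CPM at most). Dpep2, a dipeptidase, was at 5.04, 6.66, 4.26 and 3.92 CPM against 1.03 CPM at most, with a log2 fold change of 4.34 ± 0.44 (adjusted p = 3.5e-05). Acta1, the skeletal muscle actin, was at 6.95 and 7.03 CPM and then at 0.994 and 1.5 CPM, and overlapped with the other tissues (up to 4.21 CPM). Its reads are close in sequence to those of the other actins, and its value is uncertain.

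The marker with the largest log2 fold change has no symbol at hand. ENSRNOG00000008644 was at 31.9, 30.8, 24.1 and 22.5 CPM in trachea and at 0.113 CPM or less in the other 12 samples, which held 6 counts together against 2697 in trachea. ENSRNOG00000000036 was at 46.1, 49.1, 77.5 and 81.7 CPM in trachea and at 0.694 to 11.3 CPM elsewhere.

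Of the 19 lower markers with a symbol, 4 had at least 5 CPM in each of the other 12 samples, namely Degs2, Egr3, Duox2 and Cpe. Degs2, which makes phytoceramides and is known for its activity in epidermis, was at 0.586 and 0.531 CPM in the 1st round and 3.69 and 4.29 CPM in the 2nd round of trachea, and at 10.6 to 69.0 CPM in the other samples. Egr3, an early growth response transcription factor, was at 1.25, 1.35, 3.03 and 2.35 CPM, against 9.50 to 54.9 CPM. Cpe, the prohormone-processing carboxypeptidase E, was at 44.5, 43.7, 34.7 and 35.5 CPM, against 75.4 to 373 CPM. These 3 did not overlap between the groups. Over both rounds they were lower in trachea by 3.75 ± 0.91, 3.11 ± 0.77 and 2.11 ± 0.34 on the log2 scale, with adjusted p values of 0.024, 0.025 and 0.0021. The calls of Degs2 and Egr3 over both rounds were lost without any 1 of the 4 trachea samples (adjusted p up to 0.1 and 0.11), while that of Cpe held.

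Duox2, a dual oxidase that releases hydrogen peroxide and is known from thyroid and airway, was lower in trachea than in each tissue of its own round. It was at 2.23 and 2.25 CPM in the 1st round against 5.42 CPM or more, and at 5.82 and 6.30 CPM in the 2nd round against 13.2 CPM or more. Over both rounds it did not pass the test (log2 fold change -2.45 ± 1.15, adjusted p = 0.2), since the other tissues ranged from 5.42 to 160 CPM.

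Some lower markers were at or near 0 counts in trachea. Irx4, C1qtnf3 and Tmprss11a had 0 counts in the 4 trachea samples together. They encode an Iroquois transcription factor, a secreted protein of the C1q and TNF family and an airway-type transmembrane serine protease. The other 12 samples reached 1.09, 1.5 and 2.46 CPM, but many of them were near the floor too. Irx4 was at 0.281 CPM or less outside 1st round bladder, and Tmprss11a at 0.191 CPM or less in bladder and thymus. C1qtnf3 was at 0.0844 CPM or less in 2nd round vagina. Only the absence of reads in trachea at this depth can thus be stated. Enox1 had 10 counts in trachea against 1124, Clmn 7 against 616, Prss12 7 against 529 and Dpp4, a dipeptidyl peptidase of the cell surface, 7 against 335. The identifiers ENSRNOG00000011557 and ENSRNOG00000046699, which have no symbol, were at most 0.696 and 1.64 CPM in trachea, and at least 5.60 and 14.3 CPM elsewhere.

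Over both rounds together, with the trachea samples set against the other 12 and the round as a covariate, 239 genes were called higher in trachea (1.81% of the 13192 tested) and 130 lower (0.985%). All 43 higher markers and 25 of the 52 lower markers were among them. Of the 239 higher genes, 171 were called within each round as well, 35 in the 1st round only and 33 in the 2nd only. Of the 130 lower genes, 80 were called in each round, 18 in the 1st only and 32 in the 2nd only. The 6 contrasts between tissues were all called for 43 of the higher genes, 5 of them for 96, 4 for 58, 3 for 37 and 2 for 5.

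These calls rest on counting the 2 samples of a group as independent. With the 2 samples of each group summed, so that 2 trachea values stood against 6 others, limma voom called 1 gene higher (ENSRNOG00000008644, adjusted p = 0.048) and 0 lower. Of 12977 genes, 821 then had an unadjusted p below 0.05, and edgeR called 0 in either direction with 849 such genes. The 43 higher markers all had an unadjusted p below 0.05 in that fit, and 24 of the lower did. The markers were chosen from these same counts, so this is no independent support for them. The adjusted p of the 10 higher markers named above lay between 0.092 and 0.66. Without any 1 of the 4 trachea libraries the higher calls fell to between 141 and 148 and the lower calls to between 35 and 57. The balance of directions depended on the test, with 143 higher and 260 lower genes by edgeR and 192 and 666 by DESeq2.

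Within single rounds, trachea against the mean of the other 3 tissues gave 815 higher (6.18%) and 791 lower genes (6.0%) in the 1st round, and 717 (5.44%) and 1009 (7.65%) in the 2nd. The higher genes of both rounds had 327 in common, 40.1% of the 1st round and 45.6% of the 2nd. The lower genes had 406 in common, 51.3% and 40.2%. The direction turned in 58 genes from higher to lower and in 21 from lower to higher. Pearson's r between both rounds was 0.523 across the log2 fold changes of all genes tested, which are not independent of each other, and it is given as a description since both rounds hold the same lines of cells.

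**Figure D2:**
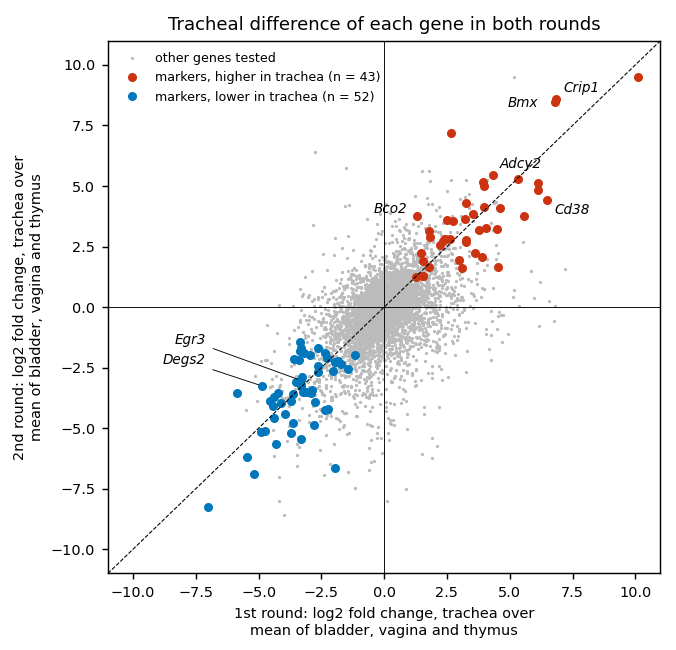
Log2 fold change of trachea over the mean of bladder, vagina and thymus in the 1st round (x axis) and in the 2nd round (y axis), 1 point for each of the 13192 genes tested, with the 43 higher markers in red and the 52 lower markers in blue and the dashed line marking equal values. The markers lie in the upper right and lower left corners by the rule that chose them, and Cd38 lies below the line with 6.49 in the 1st and 4.44 in the 2nd round.

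To describe what trachea shared or lacked, 21 lists of genes were written for cell types, regions and functions, of which 117 different genes could be matched and tested. Over both rounds 4 of these were called higher (Cyp2f4, Aqp5, Dnai2 and Aldh1a1) and 8 lower (Elf3, Car12, Cyp2s1, Crabp2, Dhrs3, Cyp26b1, Chst11 and Itgb8), where 1.81% and 0.985% of all genes tested, and 73 and 39 of the 1878 with a symbol, were called. The contrasts within rounds leave the spread between the other tissues out of the error and called more genes, so a list gene not called over both rounds may still be called in a round. Of the 1878 genes with a symbol, 262 were called higher and 258 lower within the 1st round, and 232 and 348 within the 2nd. These shares are larger than those of all genes tested. The counts of each list within rounds are to be read beside them. The name table itself consists mostly of genes that the study called against whisker cells, so the matched members are not an even sample of their lists. Of the 12 calls, 2 (Cyp2f4 and Aldh1a1) held in all fits that left out 1 library, 7 were made by edgeR too and 11 by DESeq2. The median log2 fold change of all genes tested was 0.007.

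Of 33 airway secretory genes 5 were tested, and 2 were called higher, with a list median of 1.22. Cyp2f4, the rat member of a cytochrome P450 family known from club cells, was at 3.12, 3.51, 3.46 and 2.64 CPM in trachea and at 0.0799 to 2.82 CPM elsewhere, the upper end being a 1st round vagina sample, with a log2 fold change of 2.64 ± 0.49 (adjusted p = 0.0052, and 0.076 by edgeR). Aqp5, a water channel of airway glands and surface secretory cells, was at 19.7 and 22.5 CPM in 1st round trachea and at 0.284 and 0.623 CPM in the 2nd, while 1st round thymus held 7.07 and 5.78 CPM and all other samples 0.909 CPM or less. Its call over both rounds (4.56 ± 1.08, adjusted p = 0.02) therefore rested on the 1st round, where the log2 fold change was 6.19, against 1.05 (adjusted p = 0.098) in the 2nd. It was not called by edgeR (adjusted p = 0.22) or DESeq2 (0.16). Ceacam1, Pigr and Prom1 were not called over both rounds. Within rounds Ceacam1 was called higher in each (1.30 and 1.14) against the mean of the other tissues. Bladder nonetheless lay above trachea in the 1st round (691 and 581 against 204 and 196 CPM) and in the 2nd (222 and 203 against 177 and 152 CPM), while thymus was at 19.3 CPM or less. Pigr and Prom1 were called lower in the 2nd (-2.77 and -1.44), where vagina lay below trachea in both genes.

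Of 30 genes of ciliated cells 4 were tested, with 1 called higher and a list median of -1.32. Dnai2, an outer arm dynein chain of motile cilia, was at 1.83 and 1.92 CPM in 1st round and 14.3 and 13.4 CPM in 2nd round trachea, against 0.390 to 3.44 CPM in the others (2.45 ± 0.51, adjusted p = 0.01, and 0.057 by edgeR). It was not called higher within the 1st round, where the others had 0.422 to 3.42 CPM. The call over both rounds thus rested on the 2nd. The other cilium genes stayed low in trachea, Dnah9 at 0.330 CPM or less, Cfap43 at 0.390 CPM or less and Dynlrb2 at 1.23 CPM or less, and had negative log2 fold changes that did not pass the test over both rounds. Within rounds Cfap43 (-1.34 and -1.18) and Dynlrb2 (-2.37 and -1.25) were called lower in each, and Dnah9 in the 1st (-2.17). Such levels were not particular to trachea. Dnah9 in bladder (0.0375 to 0.260 CPM), Cfap43 in 1st round bladder (0.413 and 0.174 CPM) and Dynlrb2 in 2nd round vagina (0.759 and 1.09 CPM) were as low. In trachea Dnah9 and Cfap43 were close to the smallest level taken as shown.

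None of the 6 basal cell genes tested (of 20) was called over both rounds, and the list median was -0.80. F3, the coagulation factor receptor that marks airway basal cells, was at 2195 and 2216 CPM in 1st round trachea, above the 1031 CPM of the highest other sample, and at 816 and 772 CPM in the 2nd, within the range of the others. The low affinity neurotrophin receptor Ngfr was at 0.663 CPM or less in trachea and up to 9.16 CPM elsewhere (log2 fold change -3.05 ± 1.30, adjusted p = 0.17), though it was called lower within each round. In 1st round bladder it was as low as in 1st round trachea (0.150 and 0.304 against 0.351 and 0.286 CPM). Dlk2, Aqp3, Dapl1 and Bcam had negative log2 fold changes between -1.18 and -0.33 that did not pass. Within rounds 1 gene of this list was called higher and 1 lower in the 1st, and 0 higher and 3 lower in the 2nd.

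Among 35 transcription factors of airway and foregut 7 were tested, and only Elf3 was called, with a list median of 0.26. Elf3, an epithelial ETS factor, was at 233, 234, 318 and 321 CPM in trachea and at 267 to 875 CPM in the others. Over both rounds it was lower in trachea by 1.01 ± 0.26 on the log2 scale (adjusted p = 0.031), close to the fold threshold. In the 2nd round trachea stood above vagina (273 and 267 CPM). The call of Elf3 held in 6 of the 16 fits that left out 1 library, and in 0 of those without a trachea sample. The pioneer factor Foxa1 was at 20.2, 19.4, 12.4 and 11 CPM in trachea, which put trachea below bladder (51.3 to 129 CPM) and above vagina and thymus (1.05 to 5.33 CPM) in each round. The LIM homeodomain factor Isl1 was at 12.9, 12.3, 9.37 and 10.5 CPM in trachea, above vagina (4.99 to 8.12 CPM), below thymus (13.7 to 18.7 CPM) and far above bladder (0.0751 CPM at most). Etv5, Ehf and Elf5 were not called over both rounds, though Etv5 was called higher and Elf5 lower within each. However, 1st round bladder stood above trachea in Etv5 and below it in Elf5.

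The lists of the other tissues held 1 call in trachea over both rounds, Elf3, which stands on the urothelial list too. That list (9 of 20 tested) had a median of 0.87, thymic epithelium (6 of 20) of -0.46, and vaginal and Müllerian epithelium (3 of 14) of 0.26. Within rounds the urothelial list had 3 higher and 1 lower call in the 1st and 2 and 0 in the 2nd, the thymic list 2 and 1 and then 2 and 2, and the vaginal list 0 and 1 and then 1 and 1. Uroplakin Upk1b was at 127 and 139 CPM and then 21.3 and 22.7 CPM in trachea, within the 0.380 to 193 CPM of the others. The oestrogen receptor Esr1 was at 0.368 CPM or less in trachea and below every other sample (0.591 to 20.7 CPM), without passing the test over both rounds (-2.69 ± 1.49, adjusted p = 0.28), though it was called lower within each. Of 3 Hox genes tested (of 39) none was called over both rounds. Within rounds Hoxb4 was called higher in each (log2 fold change 1.13 and 1.40) and Hoxb3 higher in the 1st (1.02), against the mean of the other tissues. For Hoxb4, bladder overlapped with trachea in the 1st round (4.69 and 5.08 against 4.96 and 4.17 CPM). It lay above trachea in the 2nd (6.27 and 4.90 against 2.37 and 2.20 CPM). For Hoxb3, 1st round bladder was also above trachea (10.9 and 11.5 against 5.58 and 5.93 CPM). Hoxa3, a gene of the pharyngeal region, was at 1.72 and 1.84 CPM in 1st round trachea and at 0.0473 and 0.0366 CPM in the 2nd, where the other tissues had at least 1.08 CPM and it was called lower (-5.41).

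Of 60 other regional transcription factors 13 were tested and none was called over both rounds, with a median of -1.36 and 10 of 13 below 0. In the 1st round 2 were called higher and 7 lower, and in the 2nd 1 higher and 7 lower, beside 6.18% and 6.0% of all genes in the 1st and 5.44% and 7.65% in the 2nd. Genes with a symbol had larger shares, as given above. The homeobox genes Dlx1, Dlx2, Dlx3, Dlx5 and Dlx6 were all at 2.64 CPM or less in trachea and reached 1.27 to 12.1 CPM in other tissues, with log2 fold changes from -3.12 to -0.90. The higher levels were those of vagina and thymus, since bladder was at 0.521 CPM or less in Dlx1, Dlx2, Dlx5 and Dlx6, and trachea lay above bladder in Dlx1 and in 2nd round Dlx5. Tbx3, a T-box factor, was at 0.507, 0.450, 6.39 and 5.42 CPM in trachea and had a median of 30.0 CPM elsewhere, but 1st round thymus was lower still (0.120 and 0.296 CPM).

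Squamous differentiation genes were not called in trachea over both rounds in 12 of the 12 tested (of 32), with a median of -0.75 and 10 of 12 below 0. In the 1st round 2 were called higher and 2 lower (6.18% and 6.0% of all genes), and in the 2nd 0 higher and 5 lower (5.44% and 7.65%). The shares of genes with a symbol, given above, were larger. Krt10, a keratin of suprabasal epidermis, was at 0.953 to 1.28 CPM in all 4 trachea samples, while it stood at 224 and 236 CPM in 2nd round bladder, 324 and 340 CPM in 2nd round vagina and 12 and 14.3 CPM in 2nd round thymus. It was at 0.929 to 1.8 CPM in 1st round bladder and thymus as well, and its log2 fold change was -2.16 in the 1st and -6.49 in the 2nd round (adjusted p = 1.5e-09). Suprabasin (Sbsn) was at 1.13, 1.02, 3.46 and 3.77 CPM in trachea with a median of 14.9 CPM elsewhere (-3.37 ± 1.10, adjusted p = 0.075), and was called lower within each round only. It was as low in 1st round bladder (0.864 and 1.65 CPM). Krt4, a keratin of wet stratified epithelia, was at 231 to 402 CPM in trachea and from 14.9 to 965 CPM in the others.

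Retinoid genes gave 4 calls among the 7 tested (of 22), 1 higher and 3 lower, with a list median of -1.27, beside 1.81% and 0.985% of all genes tested. In the 1st round 1 was called higher and 5 lower, and in the 2nd 1 higher and 4 lower. Aldh1a1, which makes retinoic acid from retinal, was at 12.3, 13, 15.8 and 12.5 CPM in trachea and at 1.01 to 7.62 CPM elsewhere, without overlap (2.51 ± 0.33, adjusted p = 0.00041). It has a close copy in the rat, Aldh1a7, with which it can share reads. Its paralog Aldh1a3 was at 31.5 to 73.2 CPM in trachea, far below bladder (465 to 5561 CPM), but above 2nd round vagina (15.7 and 16 CPM) and 1st round thymus (29.9 and 26.5 CPM) in the same rounds. Crabp2, which carries retinoic acid to its receptors, was at 102, 97.5, 105 and 101 CPM in trachea, below the lowest other sample at 109 CPM. Over both rounds it was lower in trachea by 1.24 ± 0.29 on the log2 scale (adjusted p = 0.021). Dhrs3, which reduces retinal to retinol, was at 21.9, 21.3, 50.2 and 46.9 CPM against a median of 207 CPM, and was lower in trachea by 2.41 ± 0.64 on that scale (adjusted p = 0.033). Cyp26b1, which degrades retinoic acid, was at 18.7, 15.4, 11.8 and 13.4 CPM against a median of 31.3 CPM, and was lower in trachea by 1.42 ± 0.39 on that scale (adjusted p = 0.04, and 0.11 by edgeR). In the 1st round its levels in trachea lay within the 13.9 to 25.0 CPM of the other tissues and overlapped with thymus (13.9 and 16.3 CPM). Its call over both rounds therefore rested on the 2nd, where the others had 37.6 CPM or more. When 1 library was left out, the adjusted p of Crabp2, Dhrs3 and Cyp26b1 rose to as much as 0.093, 0.11 and 0.2. Crabp2 lost its call without either 1st round trachea sample, Dhrs3 without any trachea sample, and Cyp26b1 without either 2nd round trachea sample and without some bladder or vagina samples.

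Of 38 genes of xenobiotic metabolism, a function of the airway lining, 15 were tested. Cyp2f4 and Aldh1a1 were called higher and Cyp2s1 lower, the list median was 0.64, and 12 of 15 were above 0. In the 1st round 7 were called higher and 0 lower, beside 6.18% and 6.0% of all genes, and in the 2nd 8 higher and 2 lower. Larger shares were called among the genes with a symbol, as given above. Cyp2s1, an extrahepatic cytochrome P450 of epithelia, was at 40.8, 36.3, 48.3 and 44.7 CPM in trachea against a median of 112 CPM, with an overlap only with 1st round bladder (27.9 and 46.7 CPM). Over both rounds it was lower in trachea by 1.36 ± 0.33 on the log2 scale (adjusted p = 0.025). Akr1b8, an aldo-keto reductase, was at 365, 350, 553 and 515 CPM against a median of 186 CPM, which passed the test within each round but not over both (1.23 ± 0.42, adjusted p = 0.09). In the 1st round it overlapped with bladder (433 and 298 CPM). The aryl hydrocarbon receptor Ahr was at 267 to 343 CPM, within the range of the others.

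Ion and water transport genes (14 of 30 tested) had a median of -0.83, with 11 of 14 below 0. In the 1st round 3 were called higher and 4 lower (6.18% and 6.0% of all genes), and in the 2nd 0 higher and 9 lower (5.44% and 7.65%). Among genes with a symbol these shares were larger, as given above. Over both rounds Aqp5 was called higher and Car12 lower. Car12, a membrane carbonic anhydrase, was at 80.1 and 89.5 CPM in 1st round trachea, below every other sample, and at 404 and 393 CPM in the 2nd, below the other 2nd round samples (501 CPM or more). Over both rounds it was lower than in the other tissues by 1.71 ± 0.44 on the log2 scale (adjusted p = 0.031, and 0.063 by edgeR), though it rose in trachea between rounds. The chloride channel Cftr was at 23.8 and 24.7 CPM and then 7.24 and 6.19 CPM in trachea, and spanned 0.253 to 149 CPM in the others.

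Of the genes the study names 10 of 32 were tested, and Chst11 and Itgb8 were called lower. The study named Chst11 and Itgb8 from a separate microarray comparison with whisker cells, which is not the contrast used here. Chst11, a chondroitin sulphotransferase, was at 3.04, 2.53, 1.47 and 1.28 CPM in trachea, below the lowest other sample at 4.61 CPM (-2.96 ± 0.76, adjusted p = 0.03). Itgb8, an integrin that activates TGF-beta, was at 1.09, 1.27, 2.84 and 2.60 CPM against a median of 10.5 CPM, with overlap in 1st round thymus and bladder (-2.17 ± 0.53, adjusted p = 0.025). The simple epithelial keratins Krt8 and Krt18 fell between rounds in trachea, Krt8 from 1164 and 1112 CPM to 244 and 258 CPM, and 1st round bladder stood above trachea in both.

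**Figure D3:**
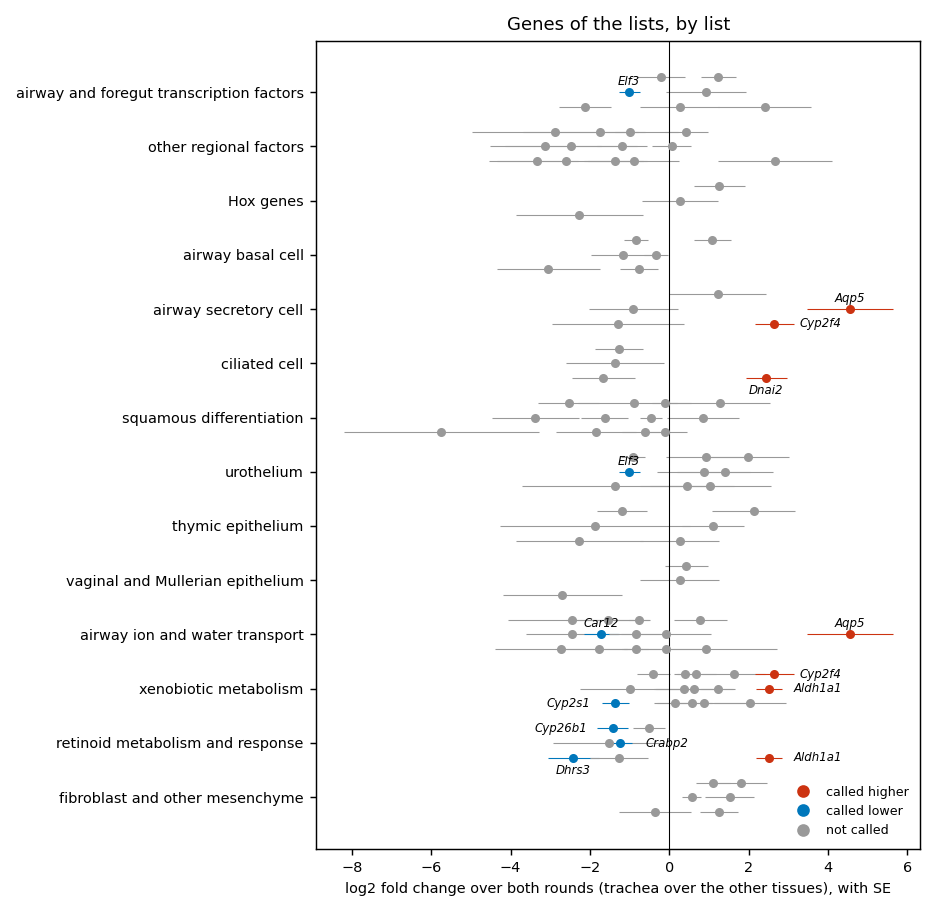
Log2 fold change over both rounds (x axis, trachea over the other tissues, horizontal bars are the SE) of the tested genes of 14 lists, 1 point for each gene, with called genes named. The called genes of the lists lie between -2.41 for Dhrs3 and 4.56 for Aqp5, and a gene that stands on 2 lists is drawn in both.

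Markers of other cells were measured beside these results. The 6 tested fibroblast genes (Col1a1, Col3a1, Col5a1, Col6a3, Dcn and Acta2) summed to 431 to 450 CPM in 1st round trachea and 318 to 377 CPM in 1st round bladder, and to between 71.5 and 149 CPM in the other groups, 2nd round trachea included. Of these 6 genes 4 were called higher in the 1st round and none over both rounds, and rat mesenchymal cells would also express EGFP. Their part in the results of the 1st round was not tested. Of 3 cartilage genes tested, Col2a1 and Acan were at 0.368 CPM or less in trachea and Col11a2 at 1.92 to 3.03 CPM, and none was called over both rounds. Within rounds Col11a2 was called lower in the 1st (-1.14) and Acan lower in the 2nd (-2.74). Of the thyroid list Duox2 and Duoxa2 were tested and were low in trachea, the latter at 0.273 CPM or less, while vagina and thymus held 0.677 CPM or less of it. Of the 5 cell cycle genes tested (of 20) none was called over both rounds (median 0.15), and Aurkb was called lower and Cdc20 higher in the 1st round. The neuroendocrine and tuft cell genes Dclk1 and Avil and the macrophage gene Cd68 were not called over both rounds. Within rounds Avil was called lower in each (-1.05 and -1.36) and Dclk1 lower in the 2nd. Cd68 was called lower in the 1st (-1.29) and higher in the 2nd (1.03), where trachea held 62.4 and 55.4 CPM and bladder 55.4 and 53.3 CPM.

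The tracheal difference itself was then compared between rounds. The difference rose from the 1st to the 2nd round in 516 genes (3.91%) and fell in 762 (5.78%). In 272 of the rises and 570 of the falls, the change of trachea between rounds was larger in size than the mean signed change of the other tissues. Opposite changes among the other tissues cancel in that mean. The counts therefore do not tell how far each of these tissues moved. Among the 239 and 130 genes called over both rounds, 80 and 35 had a rise or fall of the tracheal difference. Among the markers 13 of the 43 higher and 9 of the 52 lower had one. The change is a difference between 2 states of the same cells, and the sources do not tell whether the samples of a state came from separate grafts or cultures.

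Among genes with a symbol and at least 5 CPM in both trachea samples of a round, the largest rises were those of Hgfac, Cndp1, Fxyd4, Clec2e and Clic6. Hgfac, which activates hepatocyte growth factor, stayed at 16.2 to 20.9 CPM in trachea, while it went from 1.48 to 29.1 CPM in the other 1st round samples to 1.58 CPM or less in the 2nd, so that its log2 fold change went from 1.51 to 5.63. Clic6, a chloride intracellular channel protein, behaved in the same way, with 42.5 and 42.7 CPM and then 29.7 and 29.6 CPM in trachea, and a drop in bladder from 76.4 and 36.1 CPM to 3.59 and 2.60 CPM. Fxyd4, a regulator of the sodium pump, rose in trachea itself, from 0.898 and 1.35 CPM to 33.5 and 36.6 CPM, and 2nd round bladder held 35.5 and 37.5 CPM. Cndp1, a carnosinase, rose from 3.40 and 3.19 CPM to 9.99 and 11 CPM in trachea and fell in vagina from 97.4 and 103 CPM to 1.05 and 0.843 CPM. Clec2e, a C-type lectin, rose from 2.11 and 1.27 CPM to 9.04 and 8.83 CPM.

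Under the same limits the largest falls were those of Cyp27a1, Wipf1, Bcat1, Cachd1 and Cpne8. The level in trachea fell in all 5. Cyp27a1, a sterol hydroxylase, went from 5.82 and 5.80 CPM to 0 and 0.257 CPM in trachea, while thymus and bladder rose and vagina fell too, from 13.8 and 9.50 CPM to 0.675 and 0.702 CPM. Wipf1, a regulator of the actin nucleation machinery, went from 21.7 and 21.2 CPM to 0.0473 and 0.257 CPM. Bcat1, a branched chain aminotransferase, went from 13.7 and 14.0 CPM to 0 and 0.110 CPM, Cachd1 from 12.3 and 14.7 CPM to 1.42 and 1.47 CPM, and Cpne8, a copine, from 10.4 and 8.95 CPM to 0.426 and 0.330 CPM. Bcat1 and Wipf1 were above 8 CPM only in 1st round trachea and in bladder. None of the 5 was called over both rounds.

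**Figure D4:**
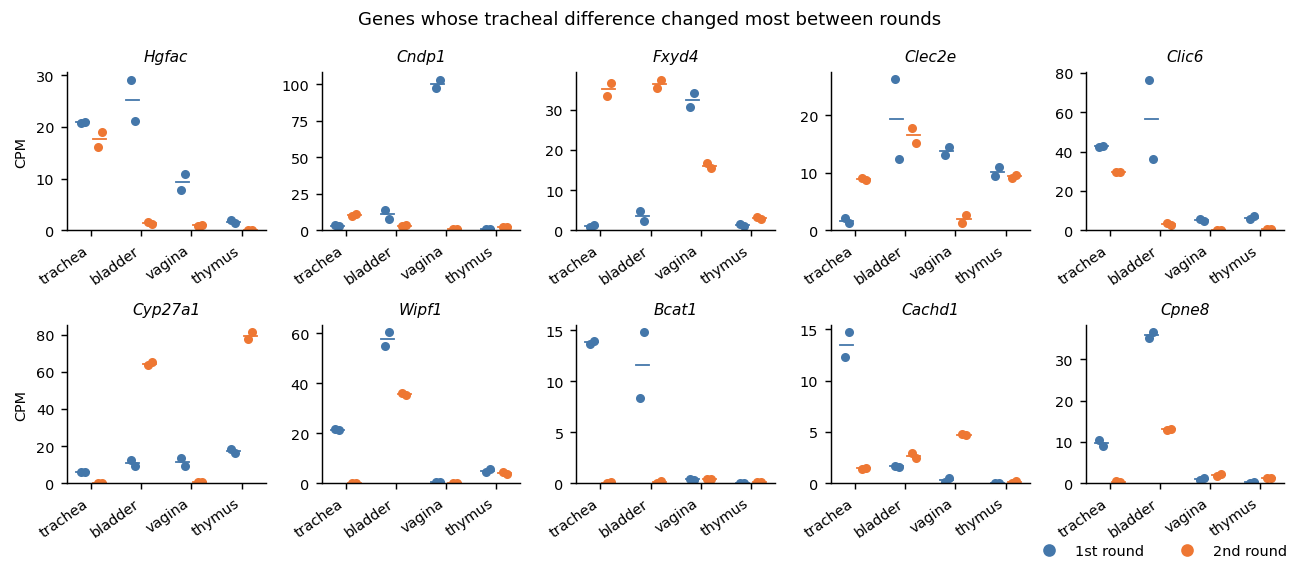
Level in CPM (linear axis from 0) of the 5 genes with the largest rise (upper row) and the 5 with the largest fall (lower row) of the tracheal difference between rounds among genes with a symbol and at least 5 CPM in both trachea samples of a round, by tissue, with 1 point for each sample and a bar for the mean of the 2 samples of a round. The 2nd round trachea samples of the lower row lie at or below 1.47 CPM, and those of Fxyd4 rose to 33.5 and 36.6 CPM.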

How the data were processed

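RNA-Seq counts of 16 of the 20 samples were used. Per the labels and the methods, the authors trimmed the reads with cutadapt 1.8, aligned them with STAR 2.5.2b to Rnor_6.0 and counted them per Ensembl gene with HTSeq 0.6.1 from a stranded mRNA kit, and deposited raw counts. Lines for reads on no feature (13.24% to 18.87%) were left out of the library sizes. Reads with several alignments were not counted, which lowers genes with near-identical copies.

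The low-count filter asked for 1 CPM in any 1 sample. TMM scaling came from edgeR 4.0.16 and the test, that of the methods, was voom of limma 3.58.1 (R 4.3.3). The comparison over both rounds used round and trachea as terms (13 residual degrees of freedom). Contrasts within rounds and between them used 8 group means (8 residual degrees of freedom). Calls needed an adjusted p (Benjamini-Hochberg over all genes) below 0.05 and a fold change of 2. The pairing of 2311 identifiers with names comes from supplementary tables, and 1914 gave a usable symbol. Coordinates of the promoters are those of GRCr8, not of the counted assembly.

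Named genes are list genes, the 15 highest and 15 lowest markers with at least 5 CPM throughout the higher side, where so many had symbols, and the 5 largest rises and falls between rounds with a symbol and at least 5 CPM in both trachea samples of a round. Other named genes were chosen after their values were seen. The members and lists were chosen with earlier results of these data known. Alternatives were edgeR, DESeq2 1.42.0, its size factors, no filter or a stricter filter (10 counts in 2 samples), a replicate block, a fold change of 4, leaving out each sample or tissue, a model with 8 group means, the 2 samples of a group summed, all 20 samples, and each round alone. The code was tested on simulated data. Some genes of the lists are not reported here.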

Additional observations from a re-analysis of the deposited data

Results flagged for a closer look

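The genes below stood out because the tracheal difference, trachea against the mean of the other 3 tissues, differed between the 1st and the 2nd round by the interaction contrast (limma voom, adjusted p below 0.05 and at least 2-fold), as it did in 516 genes with a rise and 762 with a fall. Values are the log2 change of the difference from the 1st to the 2nd round. Among the 5 largest rises and 5 largest falls of genes with a symbol and at least 5 CPM in both trachea samples of a round it was 4.12 for Hgfac, 4.10 for Cndp1, 3.78 for Fxyd4, 3.45 for Clec2e and 3.40 for Clic6, and -6.30 for Wipf1, -6.30 for Cyp27a1, -6.13 for Bcat1, -5.59 for Cachd1 and -5.31 for Cpne8.

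Among the tracheal markers of both rounds it was 1.67 for Bmx, 1.12 for Adcy2, 1.25 for F2rl2, 2.43 for Bco2 and -2.05 for Cd38, all of which stayed higher in trachea in both rounds, and 1.63 for Duox2, which stayed lower. Among the list genes called over both rounds it was -5.14 for Aqp5, 2.55 for Dnai2, 1.48 for Car12, 1.04 for Crabp2, -2.06 for Cyp26b1 and -1.60 for Chst11.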

How the results depend on the processing

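The comparison over both rounds (239 higher, 130 lower) depended most on the unit of replication. It gave 1 higher and 0 lower genes with the 2 samples of a group summed (limma voom, 821 genes with an unadjusted p below 0.05), 0 and 0 with that sum and edgeR (849 such genes, a fit chosen after seeing the data), and 666 and 877 in the model with 8 group means. By edgeR it gave 143 and 260, by DESeq2 192 and 666, without bladder 567 and 329 and without vagina 362 and 422. With a fold change of 4 there were 123 and 53 genes over both rounds, 319 and 296 (1st round), 226 and 472 (2nd round), 159 rises and 390 falls between rounds, and 14 and 20 markers. Without bladder, vagina or thymus the markers were 174, 94 and 76 higher and 154, 146 and 116 lower, as fewer contrasts had to be passed, and without bladder 827 genes had a rise. Leaving out 1 library at a time gave 141 to 294 higher and 35 to 156 lower genes over both rounds, 754 to 828 and 598 to 859 (1st round), 678 to 732 and 801 to 1030 (2nd round), 408 to 596 rises, 587 to 830 falls, and 37 to 44 higher and 41 to 54 lower markers. Other counts stayed within 1.5 times under the alternatives run. By edgeR 42 and 48 of the 43 and 52 markers were kept, and by DESeq2 37 and 44. DESeq2 gave no adjusted p over both rounds for 4 genes, Bmx and Crip1 among them. For the 83 results on single genes, 2302 values were computed under alternatives, of which 1957 kept their side of the threshold, 270 lost it, 75 gained it and 0 changed sign. Except where stated, the cause of a change was not tested.

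Replicate numbers did not pair the samples, since the deviations of samples with the same number correlated between -0.113 and 0.148 over 28 pairs of groups (median 0.0181). With the replicate block the counts were 204 and 101 over both rounds, 813 and 808 (1st round), 720 and 1024 (2nd round), 525 rises and 766 falls, and 43 and 52 markers. Among the named genes the block took the calls of Cyp26b1 and Peg3 to adjusted p values of 0.056 and 0.057, and those of Cd24, Dmrt2 and Abca8, not described here, also rose above 0.05.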

Other observations

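Some genes outside the lists and rules were looked up after their values were seen, and are given as a description. The desaturases Fads1, Fads2 and Fads3, which introduce double bonds into fatty acids, were all called higher in trachea over both rounds. Fads1 was at 216 and 203 CPM in the 1st and 275 and 277 CPM in the 2nd round of trachea, against 33.8 to 204 CPM elsewhere (1.62 ± 0.38, adjusted p = 0.019), Fads2 was at 180, 175, 252 and 217 CPM against 172 CPM at most, and Fads3 at 89.7, 92.6, 65.2 and 63.6 CPM against 57.4 CPM at most (adjusted p = 0.058 by edgeR). Fads1 and Fads2 were below 2-fold within the 1st round (log2 fold change 0.62 and 0.50) and lost their calls without either 2nd round trachea sample (adjusted p up to 0.11). Fads3 lost its call without any 1 of the 4 trachea samples (up to 0.096).

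Ptgs2, the inducible cyclooxygenase, was at 595 and 583 CPM in 1st round and 191 and 191 CPM in 2nd round trachea, and 1st round bladder held 163 and 244 CPM (2.99 ± 0.79, adjusted p = 0.034). Edn1, which encodes endothelin, was at 255 and 270 CPM and then at 94.6 and 99.2 CPM, against 104 CPM at most (1.86 ± 0.44, adjusted p = 0.02). The calls of Ptgs2 and Edn1 were lost without any 1 of the 4 trachea samples (adjusted p up to 0.12 and 0.082). The fibroblast genes were also highest in 1st round trachea and bladder, and their part in these 2 results was not tested. The imprinted gene Peg3 was at 97.7, 98.5, 222 and 219 CPM in trachea and at 0.211 to 70.2 CPM elsewhere, lowest in vagina (4.23 ± 1.16, adjusted p = 0.04, but 0.12 by edgeR and 0.075 by DESeq2), and its call too was lost without any 1 trachea sample. The imprinted gene Peg12 was also called higher, at 2.13 to 3.39 CPM against 1.65 CPM at most (2.28 ± 0.41, adjusted p = 0.004), and held in all fits that left out 1 library.

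Among the genes called lower, Bcl2l11, a proapoptotic BH3-only protein, was at 55.6, 55.5, 65.8 and 66.7 CPM in trachea against 105 to 198 CPM (-1.16 ± 0.16, adjusted p = 0.00064). Cebpa, a transcription factor of epithelial differentiation, was at 22.3, 22.2, 27.4 and 27.7 CPM against 37.0 to 111 CPM (-1.32 ± 0.18, adjusted p = 0.00045). Acvr1b, an activin receptor, was at 30.4, 32.0, 26.8 and 29.0 CPM against 39.8 to 97.9 CPM (-1.24 ± 0.17, adjusted p = 0.00058). These 3 genes did not overlap between the groups and were called in all fits that left out 1 library, but their adjusted p was between 0.39 and 0.42 with the 2 samples of a group summed.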
